A study of Mus musculus with 24 samples.

Results

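The protein-coding genes of the proteasome were followed in sorted microglia, the brain's own macrophages, over 4 groups of 6 libraries. They were chosen by name, as protein-coding mouse genes whose symbol starts with Psma to Psmg and a number. This rule leaves out Sem1 and Adrm1, subunits with another kind of name, which are given below among the genes that work with the proteasome. The pattern matched 57 genes, of which 6 were pseudogenes and were left out, and the other 51 all had values among the 15878 genes with values in the table. Of these 51, Psmc3ip, a meiotic recombination factor, matches only by name. Psme3ip1 was outside the lists drawn up for the roles of the genes and was treated in the same way. Both were kept out of every count, which left 49 genes: the 5 immunoproteasome genes and 44 others. The 44 were the 3 constitutive catalytic genes, 7 of the alpha rings, 4 other beta genes, 6 cap ATPases, 11 other cap subunits, 7 assembly factors, 4 genes of other activators and an inhibitor, and 2 core genes known from testis (Psma8) and thymus (Psmb11).

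The proteasome is the large protease that unfolds and degrades proteins tagged with ubiquitin. Its barrel-shaped core is built of rings of alpha subunits, which gate the entry, and rings of beta subunits, of which Psmb5, Psmb6 and Psmb7 carry the active sites, while a regulatory cap of ATPases (Psmc genes) and other subunits (Psmd genes) recognises and unfolds the substrate. Interferon induces a variant, the immunoproteasome, in which Psmb8, Psmb9 and Psmb10 take the places of Psmb5, Psmb6 and Psmb7 and a ring of Psme1 and Psme2 can replace the cap. This variant is known in macrophages and microglia for cutting peptides that class I molecules present to T cells.

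All samples were microglia that were sorted from the brains of mice with the genotype given as WT and are labelled day 28. WD-Exos and ND-Exos are mice given the operation named BCAS and exosomes, the small vesicles that cells release, at 100 µg into the tail vein every 3 days; the labels do not spell out WD or ND, and the title of the series names foam cells as the origin of its exosomes. The BCAS group had the same operation and PBS, a saline buffer, and Sham mice had a sham operation and PBS. BCAS commonly stands for bilateral carotid artery stenosis, which narrows both neck arteries and lowers blood flow to the forebrain. No strain, age or sex is given in the sources used here, and nothing says whether each of the 6 samples of a group is its own mouse, so the p-values describe the scatter among samples, part of which may be technical. Each exosome group was compared with BCAS, both exosome groups with each other, and BCAS with Sham; 3 of these 4 comparisons share the BCAS libraries, and the exosome comparisons share libraries as well.

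Library totals were similar, at 24277722 to 28892423 counts. All 8 microglial markers passed the filter on low counts, and their summed level averaged 49134 CPM (counts scaled for library size) in WD-Exos, 43411 CPM in ND-Exos, 49225 CPM in BCAS and 42652 CPM in Sham. Markers of other cells were uneven. Border macrophage markers (6 of 9 passed) averaged 73.9 CPM in WD-Exos, 281 CPM in ND-Exos, 176 CPM in BCAS and 464 CPM in Sham. Endothelial markers (3 of 8 passed) averaged 38.2 CPM in WD-Exos, 25.8 CPM in ND-Exos, 24.5 CPM in BCAS and 181 CPM in Sham, mural markers (1 of 8 passed) 5.21 CPM in WD-Exos, 5.13 CPM in ND-Exos, 0.078 CPM in BCAS and 199.6 CPM in Sham, and neuronal markers (2 of 7 passed) 4.94 CPM in WD-Exos, 7.42 CPM in ND-Exos, 4.90 CPM in BCAS and 63.8 CPM in Sham. Single Sham libraries reached 688 CPM of endothelial, 990 CPM of mural and 328 CPM of neuronal markers, and the part of these markers in the comparison of BCAS with Sham was not tested. T and NK cell markers (5 of 12 had values and 1 passed) reached at most 33.1 CPM in a library. Neutrophil markers (5 of 9 had values and 1 passed) reached 1.19 CPM, and 1 of them, Ltf, was at 0 in every library. Oligodendrocyte markers (6 of 8 passed the filter, none at 0 throughout) summed to 208 to 5302 CPM in WD-Exos, 81.0 to 4160 CPM in ND-Exos, 125 to 1239 CPM in BCAS and 151 to 7541 CPM in Sham, with 1 library in each group above 1000 CPM (WD-Exos 6, ND-Exos 3, BCAS 1 and Sham 4). Summed immediate early genes, a rapid transcriptional response to stress or handling, averaged 9123 CPM in WD-Exos, 3761 CPM in ND-Exos, 5628 CPM in BCAS and 1746 CPM in Sham, and exceeded 8000 CPM in 5 libraries (WD-Exos 1, 2 and 3, BCAS 1 and 2).

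Proteasome genes were detected in every group. Of the immunoproteasome genes, Psme1 and Psme2 stood near the top, Psmb8 lower, and Psmb9 and Psmb10 lower still. Per kilobase of transcript, and as the mean of all 24 libraries, Psme1 had the highest level of the 49 genes at 266 CPM per kb. Psmb3, a beta subunit without an active site, followed at 238, then Psme2 at 235 and Psmb6 at 233 CPM per kb. Psmb2 at 219, Psma7 at 179 and Psma1 at 173 CPM per kb came next. Psmb8 stood at 171 CPM per kb, below these and above its constitutive counterpart Psmb5 at 122. Psmb9 stood at 101 CPM per kb, below its counterpart Psmb6, and Psmb10 at 114 CPM per kb was close to its counterpart Psmb7 at 120. Both kinds of catalytic gene were present side by side in every group, Sham included.

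The other subgroups differed in level. Alpha ring genes ranged from 59.0 CPM per kb for Psma2 to 179 for Psma7, and the other beta genes from 116 for Psmb1 to 238 for Psmb3. In the cap, the ATPase genes ranged from 35.9 CPM per kb for Psmc6 to 158 for Psmc3, and the other subunits from 23.4 for Psmd3 to 111 for the ubiquitin receptor Psmd4. Assembly factors, which help to build the complex and then leave it, ranged from 11.9 CPM per kb for Psmd5 to 28.7 for Psmd10. Psme3, which encodes a nuclear activator, stood at 6.90 CPM per kb and Psme4, another activator, at 3.55. Psma8 stood at 5.65 and Psmb11 at 0.0102 CPM per kb, and Psmb11, with 29.57 counts over all libraries together, did not pass the filter, so 48 of the 49 genes were tested.

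**Figure D1:**
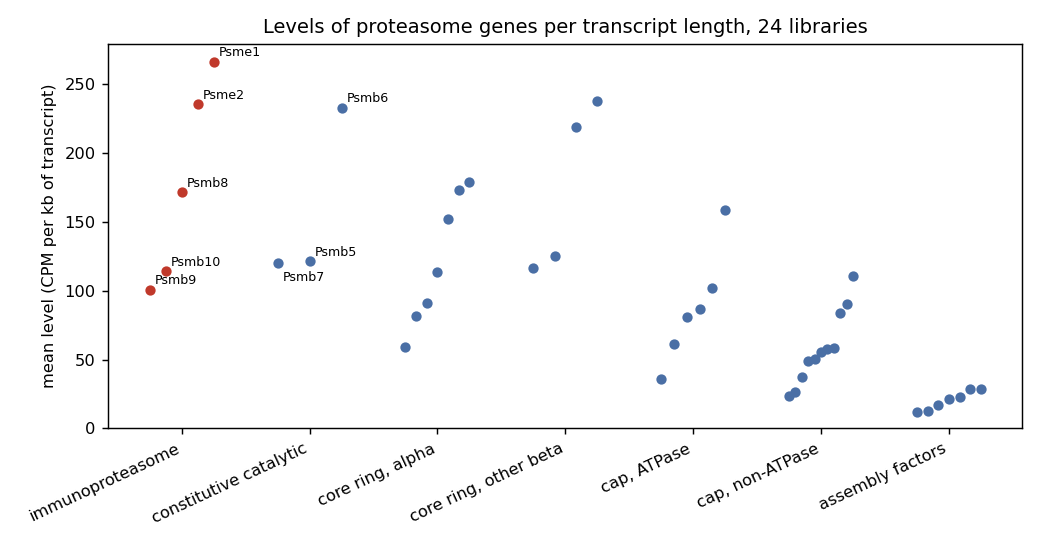
Mean level of each proteasome gene over all 24 libraries, in CPM per kilobase of transcript on a linear axis, grouped by role; red points are immunoproteasome genes and blue points the others, each column sorted by level. Psme1 at 266 CPM per kb is the highest point and the 7 assembly factors, at 11.9 to 28.7 CPM per kb, form the lowest column; the 4 genes of other activators and the inhibitor, Psma8 and Psmb11 are not drawn.

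Short stretches of promoter are given for the immunoproteasome and constitutive catalytic genes with a match to the interferon, STAT or antioxidant motif named below. Genes of these kinds without such a match are not shown. The stretches are from RefSeq on assembly GRCm38.p6, each as 60 bases of the gene's own strand, with the match in capitals. They show the letters that interferon and stress factors are known to bind, in Psme1 and Psmb8 of the immunoproteasome and in Psmb5 and Psmb6, the constitutive counterparts of Psmb8 and Psmb9. The capitals mark the interferon element core, GAAA and again GAAA with any 2 bases between, in Psme1 (read on the minus strand, first base 10 bases after the start site), the STAT element TTCNNNGAA in Psmb8 (97 bases before the start) and the antioxidant element core TGACNNNGC in Psmb5 and Psmb6 (47 and 9 bases before the start). For Psmb6 the start site of the window lies inside the gene, which the RefSeq gene table begins at base 70525324, so its match falls within the annotated gene.
Psme1, chr14:55578454-55578513, plus strand: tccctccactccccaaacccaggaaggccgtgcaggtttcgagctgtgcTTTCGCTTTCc
Psmb8, chr17:34198065-34198124, plus strand: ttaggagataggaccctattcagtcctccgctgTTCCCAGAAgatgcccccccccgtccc
Psmb5, chr14:54617996-54618055, minus strand: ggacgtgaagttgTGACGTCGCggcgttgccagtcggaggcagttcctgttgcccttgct
Psmb6, chr11:70525297-70525356, plus strand: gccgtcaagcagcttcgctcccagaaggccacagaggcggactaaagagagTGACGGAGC

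The motifs were searched on both strands of the window of each gene from 250 bases before to 50 after its start. The table held windows for all 5 immunoproteasome genes and for 36 of the 44 others. The repeated GAAA was present in 1 of 5 immunoproteasome genes (Psme1) and in 4 of 36 others (Psmb3, Psmd4, Psmd9 and Psmg4), against 4.0% of the 27025 genes with a window. TTCNNNGAA was present in 1 of 5 (Psmb8) and 2 of 36, against 9.6% of all genes. TGACNNNGC was present in 0 of 5 and 6 of 36 (16.7%), against 14.0% of all genes. The CCAAT box, searched as CCAAT, was present in 1 of 5 and 13 of 36 (36.1%), against 41.1% of all genes. A match describes these letters only, and a missing match says nothing of the factor.

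In none of the 4 comparisons did a proteasome gene pass an adjusted p of 0.05 in edgeR's quasi-likelihood test, and none did in the test for any difference over the 4 groups. The same test called few genes of any kind. Over all 10219 tested genes it called 0% for BCAS against Sham, 0.0196% for ND-Exos against BCAS, 0% for WD-Exos against BCAS, 0.0196% for WD-Exos against ND-Exos and 0.0294% over the 4 groups together. At an unadjusted p under 0.05 the members numbered 0 of 48 for BCAS against Sham (6.04% of all genes), 2 of 48 for ND-Exos against BCAS (4.47%), 0 of 48 for WD-Exos against BCAS (3.71%) and 1 of 48 for WD-Exos against ND-Exos (5.33%). Over the 4 groups together 1 of 48 had an unadjusted p under 0.05, against 6.33% of all genes. DESeq2 called 0 members in any comparison, beside 120 to 204 genes of all kinds. In RNA from bulk sorted cells, fewer cells of a type and less RNA per cell cannot be told apart.

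Psme1, a subunit of the ring that opens the immunoproteasome core, was the member with the smallest p over the 4 groups. Its level was 163 CPM at the lowest, 311 at the median and 512 at the highest in WD-Exos; 178, 216 and 236.0 CPM in ND-Exos; 236.9, 311 and 423 CPM in BCAS; and 235, 307 and 418 CPM in Sham. The ND-Exos libraries were all low and close together, whereas the WD-Exos libraries spread from the lowest to the highest value of the 24 libraries. Over the 4 groups edgeR gave it an unadjusted p of 0.0261 and an adjusted p of 0.712.

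For ND-Exos against BCAS, the question is whether exosomes of the ND kind changed these genes in operated mice. Psme1 averaged 213 ± 22.6 CPM in ND-Exos and 330 ± 77.3 CPM in BCAS (SD, n = 6 each), a log2 fold change of -0.63 (SE 0.22). Its unadjusted p was 0.00738 and edgeR's adjusted p 0.577, so it did not pass. All 6 ND-Exos libraries were below every BCAS library, by a gap of under 1 CPM at the nearest pair; 1 of 48 members was separated in this way, against 0.0881% of all genes tested in that direction and 0.0979% in the other. The summed microglial markers were 29727 to 52165 CPM in ND-Exos and 39784 to 55684 CPM in BCAS, and their part in the difference was not tested. Without the 4 libraries rich in oligodendrocyte markers the log2 fold change was -0.53, and without the 5 rich in immediate early genes -0.52.

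The other immunoproteasome genes overlapped between ND-Exos and BCAS. Psme2, the partner of Psme1 in the ring, had 135, 202 and 289 CPM as lowest, median and highest in ND-Exos and 150.0, 271 and 326 CPM in BCAS, with a log2 fold change of -0.36 (SE 0.24). Psmb8, the chymotrypsin-like catalytic subunit of the immunoproteasome, had 187, 258 and 312 CPM in ND-Exos and 224, 310.0 and 327 CPM in BCAS, with a log2 fold change of -0.20 (SE 0.17). Psmb9 differed by -0.22 (SE 0.21) and Psmb10 by 0.06 (SE 0.28) on the log2 scale. Of these 5 genes 1 was higher and 4 were lower, and their median log2 fold change was -0.22, beside -0.03 for the 43 other tested members and 0.005 for all genes. Of all 48 members, 22 were higher (45.8%), where 50.4% of all genes and 44% of the 2659 genes with a mean above 50 CPM, a level more like that of the members, were higher.

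Among the constitutive counterparts, Psmb5 differed by -0.26 (SE 0.22), Psmb6 by 0.04 (SE 0.19) and Psmb7 by -0.22 (SE 0.28) in log2 fold change between ND-Exos and BCAS. In the alpha ring, 6 of 7 genes had a higher level in ND-Exos than in BCAS; their median log2 fold change was 0.14 and the range -0.18 to 0.28, none of them past the test. Psmd11, a subunit of the cap's lid, had 91.7, 116 and 167 CPM as lowest, median and highest in ND-Exos and 99.4, 170 and 203 CPM in BCAS. Its groups overlapped, and its log2 fold change was -0.49 (SE 0.23), with an unadjusted p of 0.0416 and an adjusted p of 1 by edgeR. Psmd8, another lid subunit, and Psmb4, a beta subunit without an active site, had log2 fold changes of -0.45 (SE 0.29) and -0.33 (SE 0.19).

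Psme2b is a near copy of Psme2: its transcript was 99.4% identical to that of Psme2 over 794 aligned bases. Both genes had fractional counts in all 24 libraries, so some reads were counted in parts. Whether they were shared between Psme2 and Psme2b was not tested, and the level of Psme2b is uncertain. It averaged 4.91 ± 4.42 CPM in ND-Exos and 19.1 ± 12.5 CPM in BCAS, with overlapping groups and a log2 fold change of -1.96 (SE 1.03). With the counts of both genes added, the log2 fold change of Psme2 was -0.43 (SE 0.23) for ND-Exos against BCAS.

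For WD-Exos against ND-Exos, the comparison of both exosome kinds, Psme1 averaged 318 ± 129 CPM in WD-Exos and 213 ± 22.6 CPM in ND-Exos (SD, n = 6 each). The log2 fold change was 0.57 (SE 0.22), with an unadjusted p of 0.0137 and an adjusted p of 0.614 by edgeR. Of the WD-Exos libraries, 4 were above every ND-Exos library and 1 was below them all. No member was separated between these groups, against 0.294% of all genes separated upwards and 0.225% downwards. Its highest library, WD-Exos 6, was also the one rich in oligodendrocyte markers, and without it the log2 fold change was 0.40; its part in the difference beyond that was not tested.

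Psme2 had 141, 232 and 340.2 CPM as lowest, median and highest in WD-Exos and 135, 202 and 289 CPM in ND-Exos, with a log2 fold change of 0.19 (SE 0.24). Psmb8 had 232, 287 and 300 CPM in WD-Exos, the narrowest spread of the 4 groups, and 187, 258 and 312 CPM in ND-Exos, with a log2 fold change of 0.12 (SE 0.17). Psmb9 differed on the log2 scale by 0.06 (SE 0.21) and Psmb10 by -0.16 (SE 0.28). Among the 5 genes, 4 were higher and 1 was lower in WD-Exos, with a median log2 fold change of 0.12, beside -0.05 for the 43 other members. Without the 4 libraries rich in oligodendrocyte markers these medians were -0.043 and -0.20, and without the 5 rich in immediate early genes 0.12 and 0.076. Of all 48 members, 20 were higher (41.7%), where 49.2% of all genes and 49.4% of those above 50 CPM were higher.

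The constitutive gene Psmb6 had 89.4, 159 and 213 CPM as lowest, median and highest in WD-Exos and 157, 204 and 291 CPM in ND-Exos. The groups overlapped, with 3 WD-Exos libraries below every ND-Exos library, and the log2 fold change was -0.36 (SE 0.19, adjusted p of 0.9999 by edgeR). Psmb5 differed on the log2 scale by 0.03 (SE 0.22) and Psmb7 by -0.05 (SE 0.28). Alpha ring genes were lower in WD-Exos in 6 of 7 cases, with a median log2 fold change of -0.21. The alpha ring gene with the smallest p, Psma2, averaged 140.2 ± 53.7 CPM in WD-Exos and 186 ± 33.2 CPM in ND-Exos, a log2 fold change of -0.41 (SE 0.20, adjusted p of 0.964 by edgeR). Psmb4 (0.31, SE 0.19), Psmb3 (-0.39, SE 0.24) and Psmd8 (0.43, SE 0.29) completed the members with the smallest p on the log2 scale.

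For WD-Exos against BCAS, which asks whether exosomes of the WD kind changed these genes in operated mice, fold changes were small and mostly below 0. Of the 48 members, 13 were higher (27.1%) and 35 lower, where 48.9% of all genes were higher. The 2659 genes above 50 CPM were higher in 43.9% of cases with a median log2 fold change of -0.04. The median log2 fold change was -0.10 for the 5 immunoproteasome genes, all of them lower in WD-Exos, and -0.13 for the 43 others, of which 13 were higher and 30 lower. Without the 5 libraries rich in immediate early genes, 3 of them WD-Exos, the median of the 43 others was 0.075, and that of the 5 immunoproteasome genes 0.013, both above 0; the part of these genes in the comparison was not tested.

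Within that comparison, none of the immunoproteasome genes stood apart. Psme1 averaged 318 ± 129 CPM in WD-Exos and 330 ± 77.3 CPM in BCAS, a log2 fold change of -0.06 (SE 0.22, with an interval of -0.48 to 0.37 at 1.96 SE). Psmb8 averaged 273 ± 29.7 CPM in WD-Exos and 288 ± 45.3 CPM in BCAS, a log2 fold change of -0.08 (interval -0.41 to 0.25). Psme2 differed on the log2 scale by -0.17 (SE 0.24), Psmb9 by -0.16 (SE 0.21) and Psmb10 by -0.10 (SE 0.28). The interval reached -0.64 for Psme2 and -0.65 for Psmb10, so a p that misses the threshold does not show equal levels.

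The constitutive catalytic genes were lower in WD-Exos than in BCAS in 3 of 3 cases, with log2 fold changes of -0.23 for Psmb5 (SE 0.22), -0.32 for Psmb6 (SE 0.19) and -0.27 for Psmb7 (SE 0.28), none of them past the test. All 6 ATPase genes of the cap were lower too, with a median log2 fold change of -0.13 and a narrow range of -0.21 to -0.01. Psmb3 had 85.2, 133 and 215 CPM as lowest, median and highest in WD-Exos and 146, 210.0 and 250.2 CPM in BCAS. With 4 WD-Exos libraries below every BCAS library its groups still overlapped, and its log2 fold change was -0.48 (SE 0.24), with an unadjusted p of 0.0502 and an adjusted p of 0.9999 by edgeR. Psmd14, the enzyme of the lid that removes ubiquitin chains, averaged 62.7 ± 21.7 CPM in WD-Exos and 92.1 ± 4.13 CPM in BCAS, with 5 of 6 WD-Exos libraries below every BCAS library and a log2 fold change of -0.56 (SE 0.33). Psmd5, an assembly factor of the cap, differed on the log2 scale by -0.93 (SE 0.53) and Psmd11 by -0.38 (SE 0.23).

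**Figure D2:**
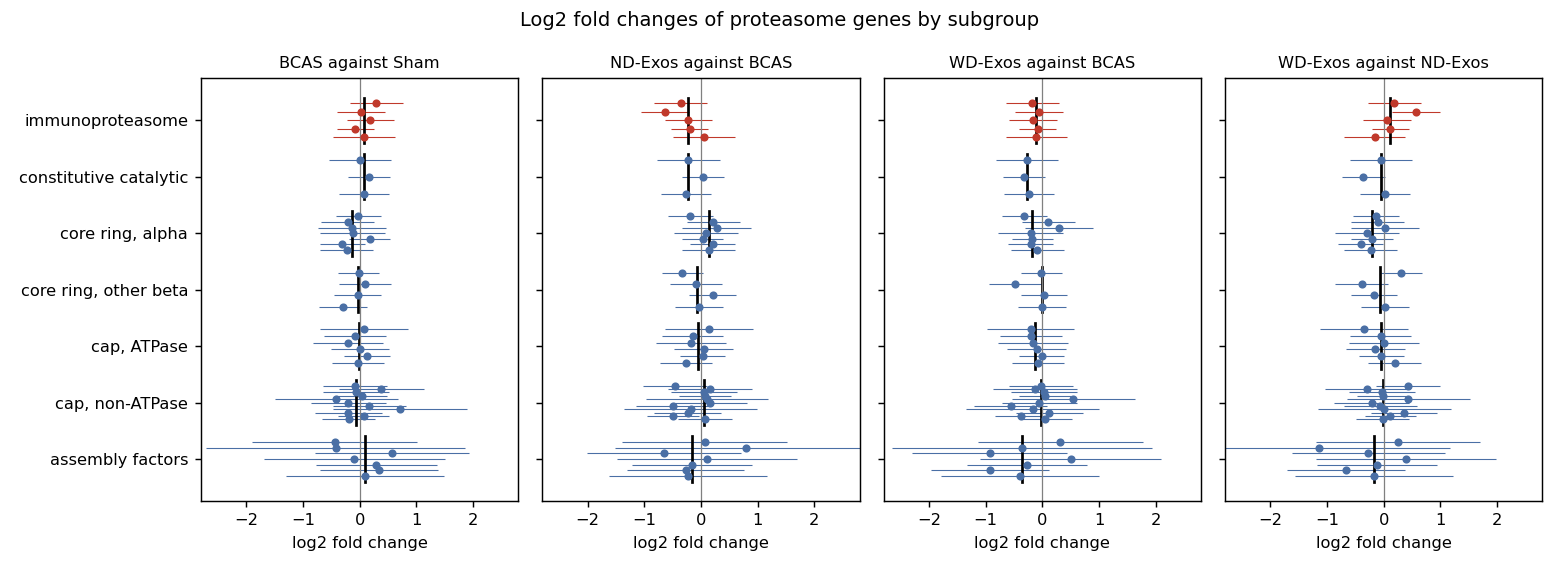
Log2 fold change of 43 tested proteasome genes in each comparison, by role; points are genes, horizontal lines 1.96 standard errors on either side, black bars the median of each role, red the immunoproteasome genes. Horizontal lines that pass the ends of the axis are clipped, and the 4 genes of other activators and the inhibitor and Psma8 are not drawn. In ND-Exos against BCAS the leftmost red point is Psme1 at -0.63, and the horizontal lines of most genes cross 0.

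For BCAS against Sham, the effect of the operation, 25 of the 48 members were higher (52.1%) and 23 lower, where 49.9% of all genes and 51.2% of those above 50 CPM were higher. Psme1 averaged 330 ± 77.3 CPM in BCAS and 324 ± 68.9 CPM in Sham, a log2 fold change of 0.03 (SE 0.22). Psmb8 had 224, 310.0 and 327 CPM as lowest, median and highest in BCAS and 189, 310.4 and 377 CPM in Sham, a log2 fold change of -0.08 (SE 0.17). Psme2 differed on the log2 scale by 0.29 (SE 0.24), Psmb9 by 0.19 (SE 0.21) and Psmb10 by 0.08 (SE 0.28). The median log2 fold change was 0.08 over the 5 immunoproteasome genes, of which 4 were higher, -0.01 over the 43 others and -0.003 over all genes.

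The constitutive genes differed between BCAS and Sham by 0.08 for Psmb5 (SE 0.22), 0.16 for Psmb6 (SE 0.19) and 0.01 for Psmb7 (SE 0.28) on the log2 scale. Alpha ring genes were lower in BCAS in 6 of 7 cases (median log2 fold change -0.13). Psma2 averaged 161 ± 31.0 CPM in BCAS and 199 ± 19.9 CPM in Sham, a log2 fold change of -0.31 (SE 0.20). Psmb1, a beta subunit without an active site, averaged 194 ± 46.7 CPM in BCAS and 239 ± 26.1 CPM in Sham, with 5 of 6 BCAS libraries below every Sham library and 1 above them all, a log2 fold change of -0.30 (SE 0.22). Psme3 differed on the log2 scale by -1.40 (SE 1.03) and Psme2b by 1.60 (SE 1.02), both at low levels. No member was separated between BCAS and Sham, against 0.117% of all genes separated upwards and 0.245% downwards; the same holds for WD-Exos against BCAS, against 0.117% and 0.0685% of all genes.

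**Figure D3:**
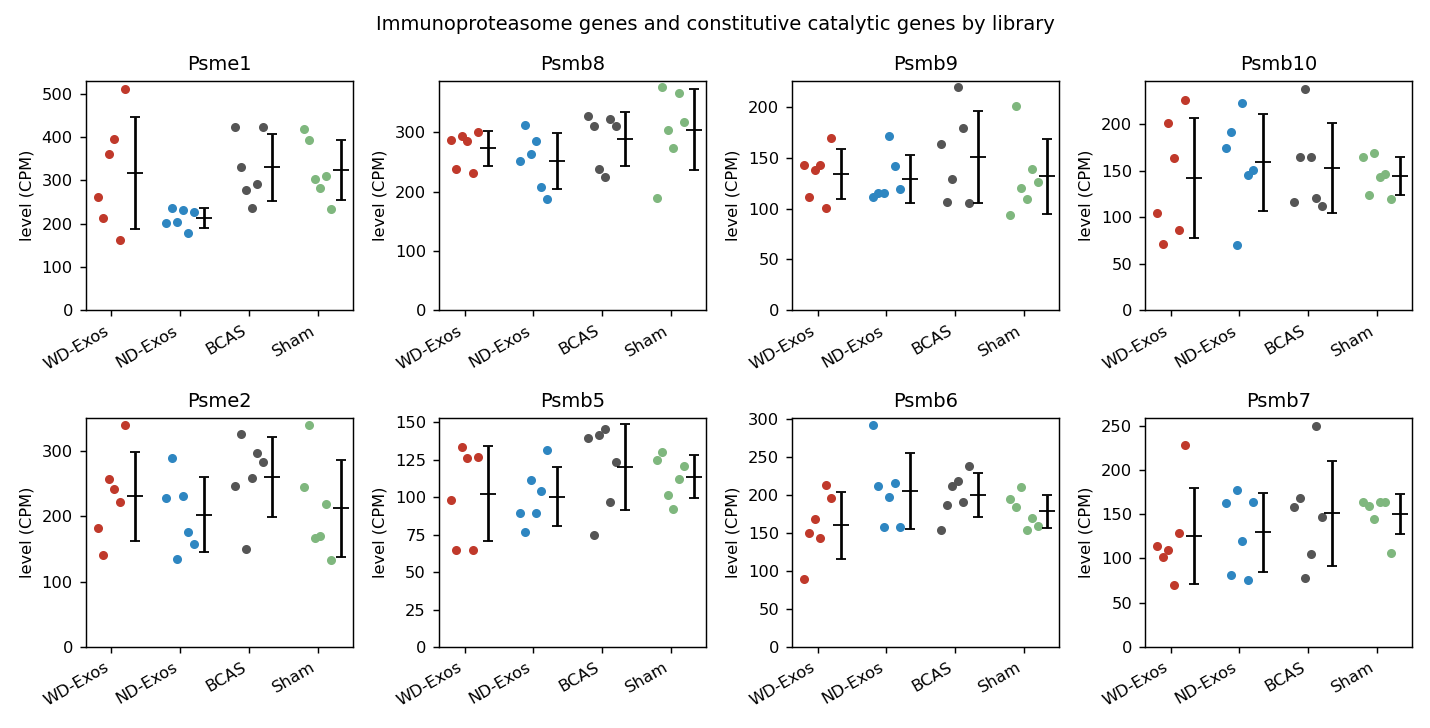
Level in CPM of the 5 immunoproteasome genes and of Psmb5, Psmb6 and Psmb7 in each of the 24 libraries; points are libraries in replicate order within a group, and the bar beside them the mean with 1 SD. The 6 ND-Exos points of Psme1 lie between 178 and 236 CPM, below all 6 BCAS points, and every other panel shows overlapping groups.

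Set against the rest of the complex, the 5 immunoproteasome genes took 19.6% ± 2.96 of the summed CPM of the 49 members in WD-Exos, 16.7% ± 1.40 in ND-Exos, 19.5% ± 1.05 in BCAS and 18.3% ± 1.63 in Sham (SD, n = 6 each). These are shares of counts and not of molecules, since transcripts differ in length. The share was 14.4% at the lowest, 20.2% at the median and 22.5% at the highest in WD-Exos; 14.4%, 16.5% and 18.3% in ND-Exos; 17.9%, 19.6% and 20.8% in BCAS; and 16.2%, 17.9% and 20.7% in Sham. In ND-Exos, 4 of 6 libraries were below every BCAS library, and in WD-Exos 4 of 6 were above every ND-Exos library. The share includes Psme1, which averaged 213 CPM in ND-Exos and 330 CPM in BCAS, where the mean sum of the 5 genes differed by -227 CPM. A share without Psme1 was not taken. The lowest WD-Exos share, in WD-Exos 5, was close to the lowest of ND-Exos.

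The sums behind that share were as follows for each group. The 5 genes summed to 1097 ± 299 CPM in WD-Exos, 955 ± 156 CPM in ND-Exos, 1182 ± 93.3 CPM in BCAS and 1116 ± 179 CPM in Sham. The 44 others summed to 4474 ± 868 CPM in WD-Exos, 4765 ± 663 CPM in ND-Exos, 4875 ± 202 CPM in BCAS and 4970 ± 292 CPM in Sham. The SD of the 44 others was wider in both exosome groups than in BCAS or Sham, a difference that was not tested. The library WD-Exos 6, rich in oligodendrocyte markers, had the highest sums of its group for both sets, and the part of those markers in its sums was not tested.

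**Figure D4:**
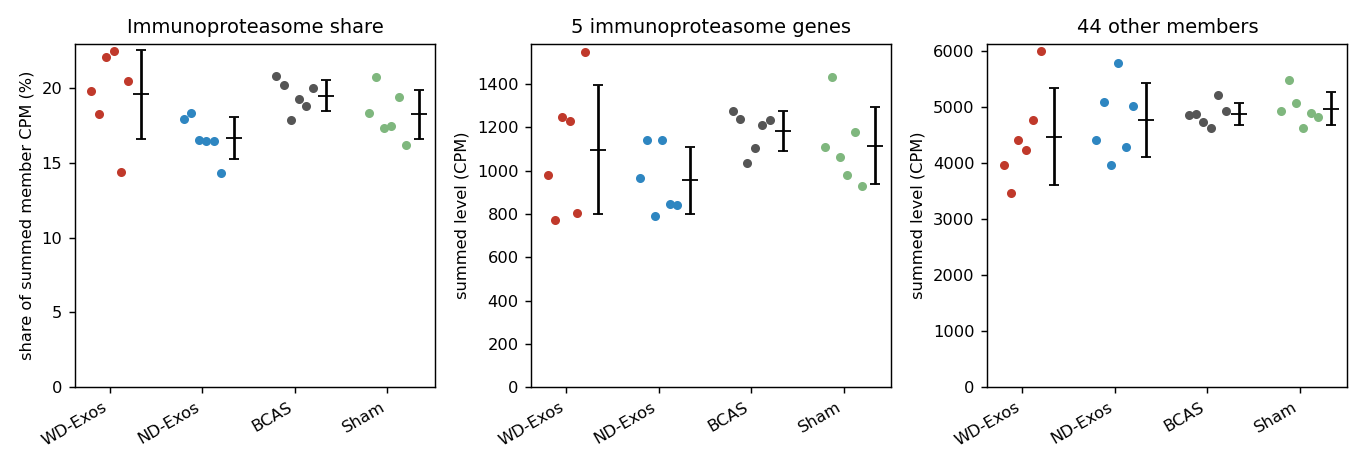
Share of the 5 immunoproteasome genes in the summed CPM of all 49 members, in percent, beside the summed CPM of the 5 genes and of the 44 others, by library; points are libraries and bars the mean with 1 SD. The share averages 16.7% in ND-Exos and 19.5% in BCAS, and the sums of the 44 others spread most in WD-Exos, between 3462 and 6001 CPM.

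The ratio of each immunoproteasome catalytic gene to its constitutive counterpart was taken within each library. These are ratios of RNA counts, not corrected for transcript length, and do not show which subunit is built into the core. The log2 ratio of Psmb8 to Psmb5 was 1.47 ± 0.34 in WD-Exos, 1.32 ± 0.53 in ND-Exos, 1.28 ± 0.55 in BCAS and 1.39 ± 0.40 in Sham. That of Psmb9 to Psmb6 was -0.22 ± 0.57 in WD-Exos, -0.66 ± 0.42 in ND-Exos, -0.45 ± 0.52 in BCAS and -0.47 ± 0.41 in Sham. That of Psmb10 to Psmb7 was 0.15 ± 0.75 in WD-Exos, 0.29 ± 0.96 in ND-Exos, 0.06 ± 0.94 in BCAS and -0.05 ± 0.23 in Sham (SD, n = 6 each). The libraries of all 4 groups overlapped for each pair. The log2 ratio of the 3 immunoproteasome catalytic genes summed to their 3 counterparts summed was 0.51 ± 0.30 in WD-Exos, 0.30 ± 0.36 in ND-Exos, 0.33 ± 0.17 in BCAS and 0.38 ± 0.26 in Sham.

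Whether members varied together between libraries of a group was asked for 8 pairs, on log2(CPM + 1) less the group mean over the 24 libraries. Psme1 and Psme2, the partners of the ring, had a Pearson r of 0.57 (permutation p = 0.00505, 0.0404 adjusted over the 8 pairs) and a Spearman rho of 0.62 (permutation p = 0.00241, adjusted 0.0193). Without the 2 libraries farthest from the median of Psme1, r was 0.61, and within single groups it ranged from 0.26 in BCAS to 0.89 in Sham. The RefSeq table places both genes on chromosome 14 with 1 gene, Emc9, between them.

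None of the other 7 pairs passed the adjustment. Psmb8 and Psmb9, which lie on chromosome 17 with the peptide transporter gene Tap1 between them, had r = 0.34 (permutation p = 0.148, adjusted 0.395), with 0.95 in WD-Exos and -0.36 in BCAS. Psmb8 and Psme1 had r = 0.32 (permutation p = 0.0883, adjusted 0.353) and rho = 0.46 (permutation p = 0.0179, adjusted 0.0715), and r was 0.64 without the 2 libraries farthest from the median. Psmb8 and its counterpart Psmb5 had r = -0.09 (permutation p = 0.634, adjusted 0.729), with 0.96 in WD-Exos and -0.84 in ND-Exos. Psmb8 and Psmb10 had r = 0.01, Psmb9 and Psmb10 0.23, Psmb8 and Tap1 0.21, and Psmb5 and Psmb6 -0.14. All values share library depth and scaling, and the tests were two-sided with 100000 permutations within groups.

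**Figure D5:**
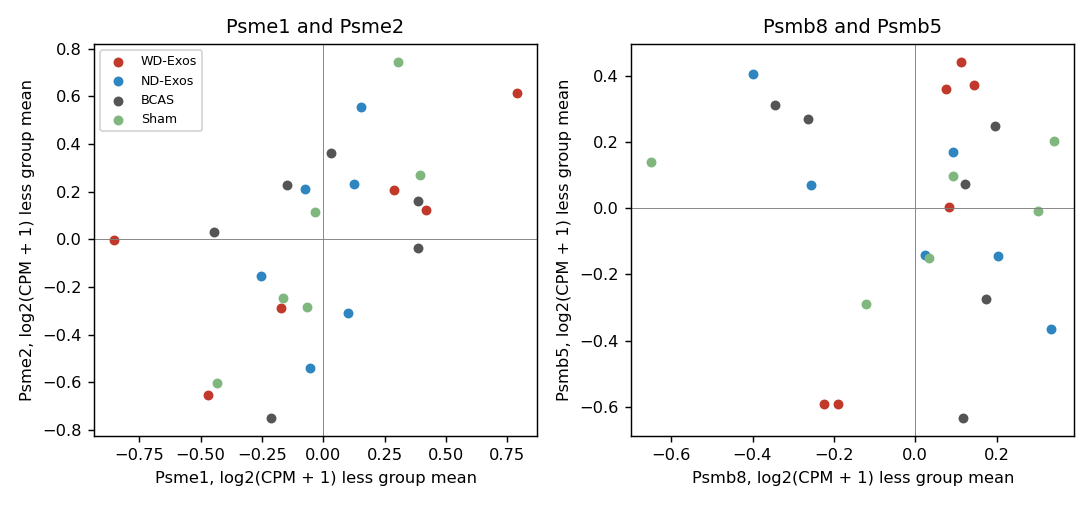
Deviation of each library from its group mean on the log2(CPM + 1) scale, for Psme1 against Psme2 and for Psmb8 against Psmb5; each point is 1 of 24 libraries, coloured by group. The points of Psme1 and Psme2 run from lower left to upper right (r = 0.57), and those of Psmb8 and Psmb5 show no common slope (r = -0.09).

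The genes that work with the proteasome were taken as lists with earlier results of these data known, and none of their members passed the threshold in any comparison by edgeR. At an unadjusted p under 0.05, the 22 partners, 6 ubiquitin genes, 14 class I genes and 14 interferon genes held 1, 3, 4 and 2 genes for BCAS against Sham, 1, 0, 4 and 2 for ND-Exos against BCAS, 0 of each for WD-Exos against BCAS and 2, 1, 4 and 3 for WD-Exos against ND-Exos. Of all tested genes, 6.04%, 4.47%, 3.71% and 5.33% had such a p in these comparisons, in the same order. DESeq2 called 4 genes of these lists for BCAS against Sham, 2 for ND-Exos against BCAS, 0 for WD-Exos against BCAS and 2 for WD-Exos against ND-Exos. Among all genes it called 204, 157, 120 and 126, in the same order. Of 22 partners, which assemble, open, feed or regulate the complex, 11 were higher and 11 lower for ND-Exos against BCAS (median log2 fold change 0.02), 10 and 12 for WD-Exos against BCAS (-0.11), 8 and 14 for WD-Exos against ND-Exos (-0.11) and 7 and 15 for BCAS against Sham (-0.12). Nfe2l2, the transcription factor of the antioxidant response, averaged 265 ± 47.1 CPM in WD-Exos, 361 ± 86.4 in ND-Exos, 255 ± 77.7 in BCAS and 218 ± 41.9 in Sham. Its log2 fold change was 0.50 for ND-Exos against BCAS (SE 0.19, adjusted p of 0.617 by edgeR) and -0.44 for WD-Exos against ND-Exos (SE 0.19, adjusted p of 0.780). Vcp, the ATPase that extracts ubiquitin-tagged proteins, differed on the log2 scale by -0.47 for ND-Exos against BCAS (SE 0.27).

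Sem1, the small subunit of the lid, averaged 79.0 ± 10.4 CPM in WD-Exos and 109 ± 12.4 CPM in ND-Exos. All 6 WD-Exos libraries were below every ND-Exos library, as in 0.225% of all genes tested. The log2 fold change of Sem1 was -0.46 (SE 0.20, adjusted p of 0.780 by edgeR). Against BCAS, at 103 ± 29.6 CPM, its log2 fold change in WD-Exos was -0.38 (SE 0.20). Adrm1, a ubiquitin receptor of the cap, averaged 79.0 ± 39.1 CPM in WD-Exos, 100.1 ± 28.9 in ND-Exos, 112 ± 13.7 in BCAS and 74.3 ± 27.5 in Sham. Its log2 fold change was -0.51 for WD-Exos against BCAS (SE 0.28) and 0.59 for BCAS against Sham (SE 0.28, adjusted p of 0.777 by edgeR). Ubqln4, a shuttle for tagged proteins, was at 1.02 ± 2.16 CPM in BCAS and 9.57 ± 11.8 CPM in Sham, a level too low to give a firm fold change (SE 2.39).

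Of the genes that supply ubiquitin or activate it, Rps27a, which encodes ubiquitin fused to a ribosomal protein, averaged 827 ± 218 CPM in BCAS and 1224 ± 165 CPM in Sham, a log2 fold change of -0.57 (SE 0.16, adjusted p of 0.362 by edgeR and 0.0470 by DESeq2). Copies of this gene exist in the mouse genome, and how reads were shared among them is not given in the sources used here. The polyubiquitin gene Ubb differed on the log2 scale by -0.32 for WD-Exos against ND-Exos (SE 0.13, adjusted p of 0.758), by 0.20 for ND-Exos against BCAS (SE 0.13) and by -0.12 for WD-Exos against BCAS (SE 0.13).

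Class I presentation, the pathway that the immunoproteasome feeds, held 14 tested genes. For ND-Exos against BCAS, 4 were higher and 10 lower (median log2 fold change -0.33). H2-D1, a class I heavy chain, averaged 2154 ± 279 CPM in ND-Exos and 4154 ± 1692 CPM in BCAS and differed by -0.95 on the log2 scale (SE 0.23, adjusted p of 0.577 by edgeR and 0.00267 by DESeq2), and H2-K1, another heavy chain, differed by -0.89 (SE 0.27, adjusted p of 0.577). For WD-Exos against ND-Exos 12 of 14 were higher, with a median of 0.38, and the smallest p belonged to H2-T23 at 0.93 (SE 0.29, adjusted p of 0.507 by edgeR) and H2-D1 at 0.59 (SE 0.23). For WD-Exos against BCAS 7 were higher and 7 lower, and B2m, the light chain, differed on the log2 scale by -0.32 (SE 0.16) and H2-D1 by -0.36 (SE 0.23). For BCAS against Sham 11 of 14 were higher, with a median of 0.34, and H2-D1 differed on the log2 scale by 0.77 (SE 0.23) and H2-M3 by 1.31 (SE 0.43), both with an adjusted p of 0.376 by edgeR, where DESeq2 gave H2-D1 0.0268. Class I heavy chain genes are close relatives, so reads may have been shared out among them.

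Interferon receptors and their signalling genes, also 14, were split in much the same numbers. For ND-Exos against BCAS 10 were lower (median log2 fold change -0.30). Irf9, a transcription factor of interferon signalling, had a log2 fold change of 0.96 for BCAS against Sham (SE 0.27, adjusted p of 0.360 by edgeR and 0.0205 by DESeq2) and of -0.78 for ND-Exos against BCAS (SE 0.27). All 6 BCAS libraries were above every Sham library for Irf9, as in 0.117% of all genes tested. Beside these values, the 5 immunoproteasome genes had log2 fold changes of -0.08 (Psmb8) to 0.29 (Psme2) for BCAS against Sham, 4 of them above 0.

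For WD-Exos against ND-Exos 11 of these 14 genes were higher, with a median log2 fold change of 0.28, and Irf8, a transcription factor of microglia, differed by 0.78 (SE 0.21, adjusted p of 0.299 by edgeR and 0.0274 by DESeq2). For WD-Exos against BCAS 8 were higher and 6 lower, with Irf8 at 0.43 (SE 0.21) and Irf1 at 0.77 (SE 0.46). For BCAS against Sham 11 of 14 were higher, with a median of 0.26.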

How the data were processed

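RNA was measured in microglia sorted by flow cytometry, with cDNA amplified by Smart-seq2 per the labels' protocols. The authors deposited estimated counts for Entrez genes without scaling across libraries; the values of 76.8% of genes were whole in every library. Aligner, counter and genome build: not given in the sources used here. Of 22064 identifiers, 6186 were blank, and 15828 of the 15878 with values were named in the RefSeq gene table of GRCm38.p6.

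Estimated counts were rounded and tested in R 4.3.3 with edgeR 4.0.16: filterByExpr at a minimum of 10 counts (10219 genes), TMM factors of 0.936 to 1.17, 1 robust quasi-likelihood fit of 4 group means over 24 libraries, and Benjamini-Hochberg adjustment over all tested genes at a threshold of 0.05. SE is the standard error of the log2 fold change, SD the spread over 6 libraries, and CPM is on the TMM scale. Transcript lengths are those of principal transcripts of GENCODE mouse release 21. Promoter windows are from RefSeq (GRCm38.p6), and transcripts were aligned with blastn 2.17.0. The procedure was also run on simulated counts, changed only in genes of high level, and its recovery of those changes is not reported here. Reads carry no molecular identifiers, so amplified copies may count more than once.

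The members, lists and tests were chosen with earlier results of these data known. Named in every comparison were the 5 immunoproteasome and 3 constitutive catalytic genes, with the 4 other members of smallest p; of each list, the 2 genes of smallest p, some of which are not reported here, and per subgroup the lowest and highest level. Psme3ip1 matched the name pattern outside the lists drawn up and was treated like Psmc3ip. Alternatives were other size factors, other filters, the replicate number as a block, only the 12 libraries compared, DESeq2 1.42.0, another pseudocount and leaving out libraries.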

Additional observations from a re-analysis of the deposited data

Results flagged for a closer look

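In 5 of 76 groups of 6 libraries examined, taken from 19 measures of proteasome genes, 1 library stood far from the other 5; chance alone flags about 1 group in 20 (5%). Psma2 stood at 161 CPM in Sham replicate 1, against 197 to 216 CPM in the other Sham libraries. Psmb1 stood at 284 CPM in BCAS replicate 2, against 154 to 195 CPM in the others. Psmb7 stood at 107 CPM in Sham replicate 6, against 144 to 164 CPM. Psmd11 stood at 167 CPM in ND-Exos replicate 5, against 91.7 to 117 CPM in the others, and without that library its log2 fold change against BCAS was -0.62. Psmd5 stood at 23.7 CPM in Sham replicate 4, the library rich in oligodendrocyte markers, against 50.4 to 62.5 CPM.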

How the results depend on the processing

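No member passed the threshold under any alternative run in any comparison. The test over the 4 groups was repeated only with other size factors, without a filter and with the replicate block, and no member passed there. The cause of the shifts below was not tested. The count of all genes past it moved more: DESeq2 gave 204 for BCAS against Sham, 157 for ND-Exos against BCAS, 120 for WD-Exos against BCAS and 126 for WD-Exos against ND-Exos, where edgeR gave 0 for BCAS against Sham and for WD-Exos against BCAS, and 2 for each of the others. Without a filter 30 genes passed over the 4 groups, against 3 with it, and with only the 12 libraries compared 1 passed for WD-Exos against ND-Exos. Leaving out 1 library gave 0 to 32 genes for BCAS against Sham (32 without BCAS 2), 1 to 3 for ND-Exos against BCAS and 2 to 5 for WD-Exos against ND-Exos (5 without ND-Exos 5).

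Nothing in the labels says that a replicate number marks a shared source. Deviations of same-numbered libraries correlated at -0.062 to 0.00051 in BCAS against Sham, -0.159 to 0.088 in ND-Exos against BCAS, 0.034 to 0.175 in WD-Exos against BCAS (3 of 6 pairs over 0.1, a hint of shared numbers there) and -0.066 to 0.042 in WD-Exos against ND-Exos, so the numbers were not taken as pairs. With the replicate number as a block 0 members passed, Psmb7 turned to -0.039 for BCAS against Sham and Psmb5 to -0.0030 for WD-Exos against ND-Exos; of the 12 libraries compared, 0 correlated best with their own number in BCAS against Sham, 1 in ND-Exos against BCAS, 5 in WD-Exos against BCAS and 0 in WD-Exos against ND-Exos.

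Chosen after seeing the data, leaving out the 4 libraries rich in oligodendrocyte markers gave 1 gene for ND-Exos against BCAS and turned the log2 fold changes of Psme1 (-0.090) and Psmb5 (-0.018) for BCAS against Sham and of Psmb9 (-0.043), Psme2 (-0.045) and Psmb5 (-0.00032) for WD-Exos against ND-Exos. Leaving out the 5 rich in immediate early genes gave 27 genes for BCAS against Sham and a median of 0.075 for the 43 other members in WD-Exos against BCAS and of 0.076 in WD-Exos against ND-Exos. It turned Psme1 (-0.078) and Psmb7 (-0.057) for BCAS against Sham, Psmb6 (-0.053) for ND-Exos against BCAS, Psmb10 (0.013), Psmb8 (0.0097), Psme1 (0.23) and Psme2 (0.13) for WD-Exos against BCAS, and Psmb10 (0.0010) and Psmb7 (0.14) for WD-Exos against ND-Exos.

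With 1 library left out, log2 fold changes near 0 changed sign. The ranges were -0.088 to 0.16 for Psmb10, -0.053 to 0.12 for Psme1 and -0.19 to 0.14 for Psmb7 in BCAS against Sham; -0.069 to 0.23 for Psmb10 and -0.090 to 0.12 for Psmb6 in ND-Exos against BCAS; -0.28 to 0.073 for Psmb10 and -0.23 to 0.084 for Psme1 in WD-Exos against BCAS; and -0.0093 to 0.16 for Psmb9, -0.053 to 0.14 for Psmb5 and -0.30 to 0.078 for Psmb7 in WD-Exos against ND-Exos. The median of the 43 other members changed sign too, over -0.041 to 0.048 in BCAS against Sham (highest without Sham 2), -0.14 to 0.0015 in ND-Exos against BCAS (highest without BCAS 6) and -0.18 to 0.021 in WD-Exos against ND-Exos (highest without ND-Exos 6). Psme1 kept its direction for ND-Exos against BCAS (-0.71 to -0.55, lowest adjusted p 0.471 by edgeR) and for WD-Exos against ND-Exos (0.40 to 0.72, lowest 0.317). With log2(CPM + 10) the r of Psme1 and Psme2 was 0.58 (permutation p adjusted 0.0398). At a common biological coefficient of variation of 1.45 over all tested genes, modest changes of low genes are not detectable here. The genes' own coefficients were smaller for the immunoproteasome genes, at 0.26 (Psmb8) to 0.37 (Psmb10). For their constitutive counterparts they were 0.29 (Psmb6) to 0.38 (Psmb7).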
